A study of Mus musculus with 10 samples.

Results

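The cornified envelope genes are 34 listed genes of late keratinocyte differentiation: 14 genes of the Lce1 cluster, 5 other envelope precursors, 4 S100-fused proteins, 2 plakins, 3 transglutaminases, 4 proteases and 2 protease inhibitors. They were taken by gene symbol from the rows with a completed test (status OK) of the authors' deposited comparison tables, without a filter on level or fold change. The list itself was chosen with earlier results of these data known. All 34 had such a row among the 11464 loci of suprabasal cells, and 25 had one among the 11290 loci of basal cells. Hrnr, Rptn and 7 Lce1 genes (Lce1a2, Lce1e, Lce1h, Lce1i, Lce1j, Lce1k and Lce1l) were not analysed in basal cells. The same locus stood in both tables for 24 genes, and the comparison of the layers rests on these.

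The cornified envelope is the protein shell that replaces the plasma membrane of a keratinocyte in its last step of differentiation and carries the barrier of the skin. Plakins form a first scaffold, and transglutaminases then link glutamine to lysine side chains of loricrin, involucrin, the late cornified envelope (LCE) proteins and other precursors. Proteases and their inhibitors process the precursors and the enzymes, and later set when dead cells are shed. Most of the precursors are encoded side by side in the epidermal differentiation complex, a gene cluster on chromosome 3 of the mouse.

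Keratinocytes from the skin of FVB/N mice at postnatal day 4 were sorted by flow cytometry and their RNA was sequenced. The groups were wild type basal (3 samples), bitransgenic basal (2), wild type suprabasal (3) and bitransgenic suprabasal (2). Bitransgenic mice are a model of Hutchinson-Gilford progeria (HGPS) and, per the series title, accumulate progerin, a shortened lamin A. The labels name neither the transgenes nor the promoter that drives them, and do not say whether a sample is 1 animal. Basal cells are the dividing layer on the basement membrane, and suprabasal cells have left it. Each table gives 1 level per group, read as FPKM (fragments scaled to the length of the transcript and the depth of sequencing). No level therefore carries a replicate error, no value per sample can be shown, and the depth of the libraries is unknown. Log2 fold changes set bitransgenic over wild type levels and are followed by ± the standard error (SE) that the authors' p-value implies. A call means that the q-value (adjusted p) in the authors' deposited table was under 0.05.

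The sorted cells carried the keratinocyte markers looked for. Summed over 12 basal keratinocyte loci, the level in wild type cells was 19017 FPKM in the basal and 8781 FPKM in the suprabasal sort, against 12158 and 4743 FPKM in bitransgenic cells. Most of each sum was a merged locus that names Krt5 with Krt2 and other keratins, so the sums are not of basal markers alone. That locus had 11677 and 6923 FPKM in wild type and bitransgenic basal cells, and 5147 and 2591 FPKM in suprabasal cells. Of the 12 loci, 11 were lower in bitransgenic cells in each layer, and Krt15 was called lower in both. The 7 early suprabasal loci summed to 9096 and 11309 FPKM in wild type and bitransgenic basal cells, and to 19365 and 14836 FPKM in suprabasal cells. Of these 7, 5 were higher in bitransgenic basal cells (median log2 ratio 0.12) and 4 in bitransgenic suprabasal cells (median 0.06). The lower suprabasal sum went with Krt10 (6574 and 2354 FPKM) and Krt1 (3419 and 1622 FPKM), while Krtdap had 7776 and 9141 FPKM, and none of the 7 was called there. The melanocyte markers summed to 8.38 and 12.9 FPKM (3 of 8 measured) in basal cells, and to 2073 and 3843 FPKM (8 of 8 measured, all 8 higher in bitransgenic cells, none called) in suprabasal cells. Fibroblast markers summed to 16.6 and 12.2 FPKM (3 of 8 measured) and to 340 and 524 FPKM (6 of 8 measured), with Col5a2 called lower in basal cells. Most of the suprabasal sum was Vim (316 and 492 FPKM), which melanocytes also express, and the highest of the other fibroblast markers there was 10.4 FPKM. Of 12 hair follicle markers 4 were measured, 1 of them in a merged keratin locus with Krt5, and Tchh was called lower in both layers (8.54 and 3.48 FPKM in basal, 8.19 and 2.35 FPKM in suprabasal cells). Sebocyte markers summed to 36.3 and 69.9 FPKM (2 of 6 measured) and to 165 and 197 FPKM (5 of 6 measured), none called. Of 8 leukocyte markers only Cd74 was measured (5.79 and 5.02 FPKM in basal cells, 7.14 and 6.66 FPKM in suprabasal cells), and of 4 endothelial markers none. All 10 immediate early and heat shock loci were lower in bitransgenic cells in both layers, 6 of them called in basal and 4 in suprabasal cells. The X-linked RNA Xist stood at 0.258 and 108 FPKM in basal cells and 0.236 and 103 FPKM in suprabasal cells. The labels used here give no sex, and the part of sex, handling and other cell types in the results below was not tested. In bulk RNA of this kind, fewer cells of a type and less RNA per cell cannot be told apart.

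Few cornified envelope genes passed the authors' adjusted test, 2 in basal and 1 in suprabasal cells. In basal cells Cst6, a cystatin that inhibits lysosomal cysteine proteases, rose, and Lor, the gene of loricrin, fell. That is 1 of 25 genes higher (4%) against 0.257% of all basal loci, and 1 of 25 lower (4%) against 1.39%. In suprabasal cells Kprp, a proline-rich keratinocyte protein, was called higher and no member was called lower. The shares were 1 of 34 called higher (2.94%) against 0.0523% of all loci, and 0 of 34 called lower against 0.419%. At the authors' unadjusted p under 0.05, 5 of 25 basal members were higher (20%, against 1.47% of loci) and 5 were lower (20%, against 6.21%). By the same unadjusted count 10 of 34 suprabasal members were higher (29.4%, against 1.95%) and 3 were lower (8.82%, against 5.16%). The median log2 ratio of the members, with 1 FPKM added to both levels, was -0.78 in basal and 0.63 in suprabasal cells, beside -0.11 and -0.08 over all loci. Over the 24 genes measured at the same locus in both layers the medians were -0.88 and 0.38. The basal median of the 25 was -0.48 with a pseudocount of 5 FPKM and -0.43 over members with at least 5 FPKM in a group. In all, 7 of 25 members had the higher level in bitransgenic basal cells and 27 of 34 in bitransgenic suprabasal cells, beside 39.7% and 43.4% of all loci. Over the 24 genes in both layers, 6 had the higher level in bitransgenic basal and 18 in bitransgenic suprabasal cells. Of these 24, 8 were higher and 3 lower in suprabasal cells at the authors' unadjusted p under 0.05. The 9 genes analysed in suprabasal cells alone were all higher in bitransgenic cells and enter the counts through that layer only. Many members are copies of 1 family and all share the samples, so these counts are not of independent genes. The members were also chosen with earlier results of these data known, so the shares set beside all loci are not a test.

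**Figure D1:**
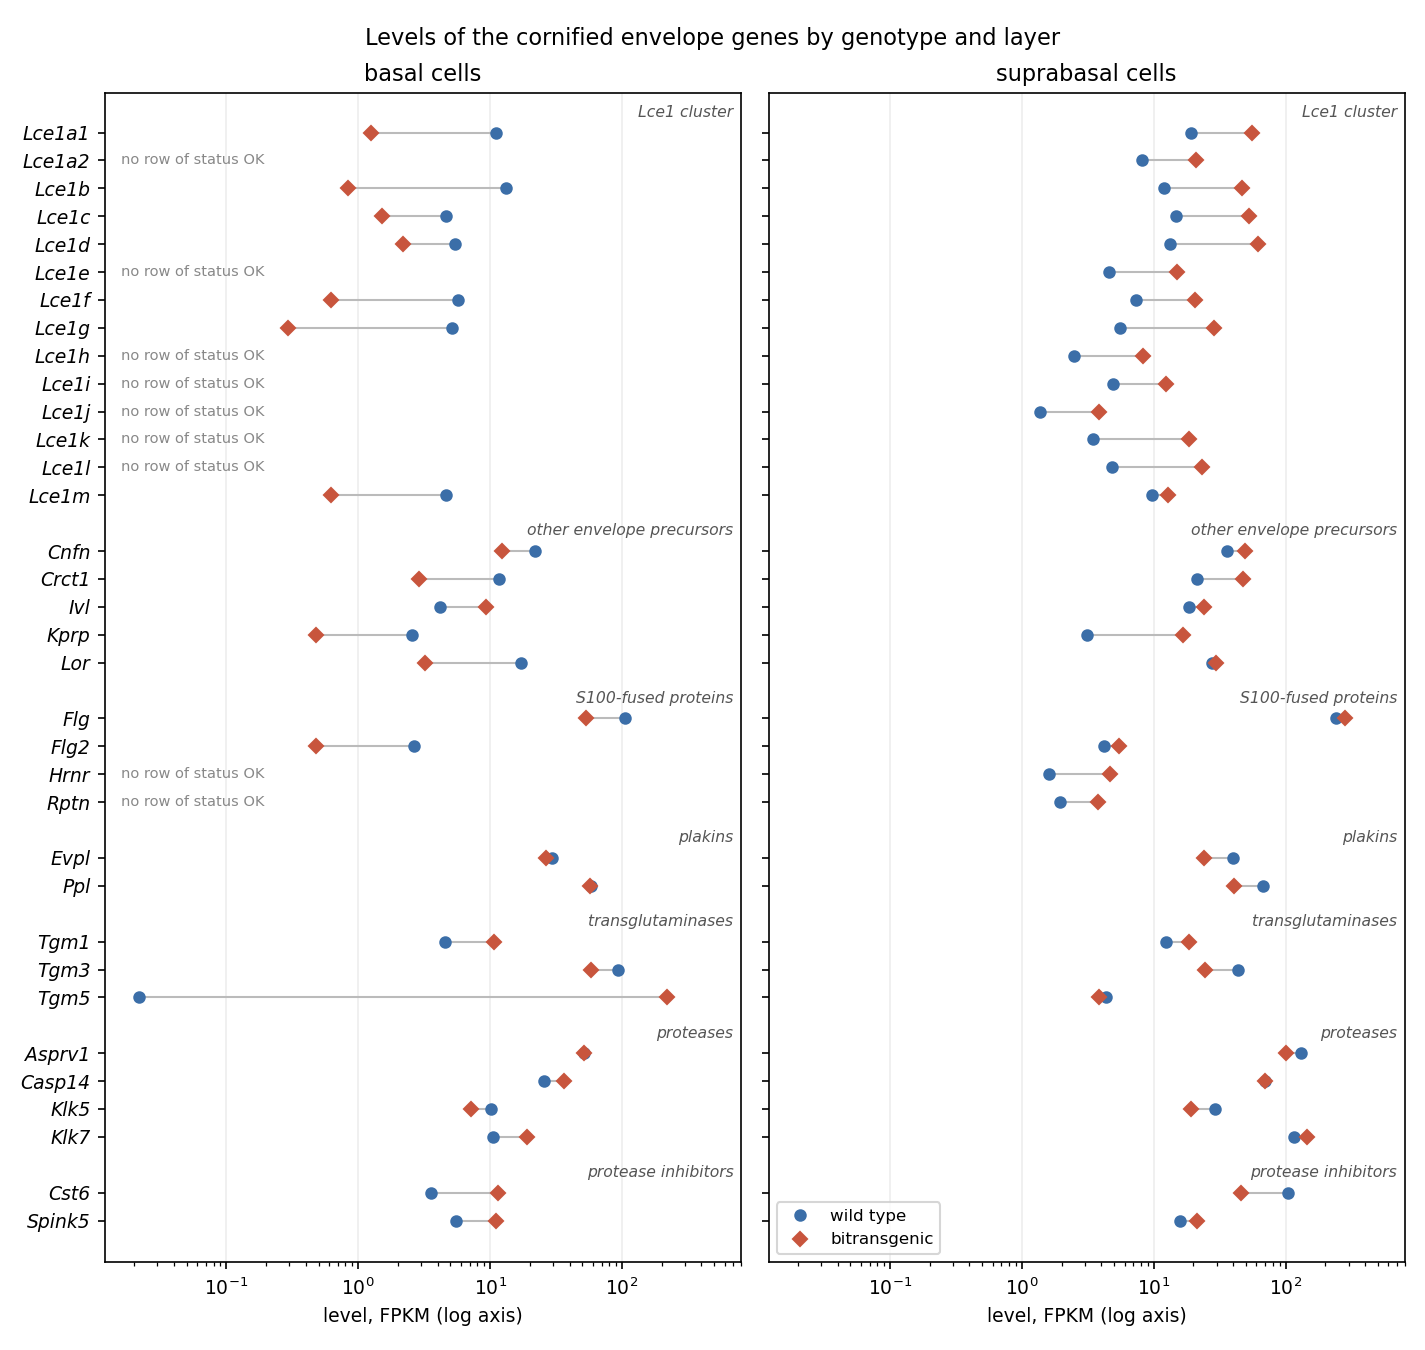
Level of each cornified envelope gene (FPKM, log axis) in wild type (circles) and bitransgenic (diamonds) cells, basal at left and suprabasal at right, 1 authors' value per group. The Lce1 diamonds lie left of the circles in basal cells and right of them in suprabasal cells; the basal Tgm5 row is another locus than the suprabasal one and is uncertain.

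The 14 Lce1 genes encode small envelope precursors laid down late, under the earlier proteins of the shell. They lie in 373 kb of chromosome 3 (chr3:92646535-93019060, GRCm38, the same build as mm10, GENCODE M21 annotation), 13 on the minus strand and Lce1c on the plus strand, with 16 other annotated genes among them. Their coding sequences are alike except for that of Lce1m. Over the 91 pairs the identity of the coding bases ran from 43.4% to 95.7%, with a median of 83.3%, and Lce1c and Lce1f were the closest pair. Pairs with Lce1m ran from 43.4% (Lce1k) to 57.9% (Lce1i). The lowest pair without it, Lce1a1 and Lce1l, had 73.9%. The first 90 coding bases of several members are shown because the glutamine and lysine codons, in capitals, are the residues that transglutaminases join. They come from GENCODE M21 transcripts, 5′ to 3′.
Lce1d: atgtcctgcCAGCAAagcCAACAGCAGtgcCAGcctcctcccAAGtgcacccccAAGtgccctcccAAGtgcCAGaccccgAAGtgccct
Lce1g: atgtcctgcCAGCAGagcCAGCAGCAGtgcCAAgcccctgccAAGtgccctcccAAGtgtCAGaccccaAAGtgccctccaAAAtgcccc
Lce1m: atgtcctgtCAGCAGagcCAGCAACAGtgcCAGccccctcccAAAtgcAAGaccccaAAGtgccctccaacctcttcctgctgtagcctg
Lor: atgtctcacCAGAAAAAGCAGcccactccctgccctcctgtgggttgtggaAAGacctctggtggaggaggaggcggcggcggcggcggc
Kprp: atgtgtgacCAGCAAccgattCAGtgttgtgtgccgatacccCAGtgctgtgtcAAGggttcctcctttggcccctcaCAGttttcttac
Cst6: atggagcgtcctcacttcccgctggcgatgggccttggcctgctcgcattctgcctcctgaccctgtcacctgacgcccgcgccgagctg
In 13 of the 14 Lce1 genes, 11 of these first 30 codons stand for glutamine or lysine, and in Lce1m 9 do. Lor has 5 in the same stretch and Kprp 6, while Cst6, which encodes a secreted inhibitor, has 0. Over the whole coding sequence, cysteine takes 21.8% of the codons of Lce1d and serine 36.3% of those of Lce1m. Glycine takes 55.3% of the codons of Lor and glutamine 26.7% of those of Ivl. The likeness of the genes also bears on their levels: of the 50-base words of an Lce1 transcript, between 9.12% (Lce1k) and 27.1% (Lce1i) also occur in another gene's transcript, and in Lce1m none do. How the authors' tools shared out reads that fit several copies is not given in the sources used here, so the level of a single copy other than Lce1m is uncertain.

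In basal cells all 7 Lce1 genes measured had the lower level in bitransgenic cells, and none was called. Lce1b stood at 13.1 FPKM in wild type and 0.840 FPKM in bitransgenic cells (-3.96 ± 3.37). Lce1a1 stood at 11.1 and 1.26 FPKM (-3.13 ± 2.35). Lce1g had 5.12 and 0.295 FPKM (-4.12 ± 2.90). No Lce1 gene reached p under 0.05 here, and the SEs ran from 1.06 to 3.37. Lce1f had 5.71 and 0.619 FPKM, and Lce1m, the copy that shares no 50-base word, 4.59 and 0.620 FPKM. Lce1c had 4.65 and 1.51 FPKM and Lce1d 5.43 and 2.19 FPKM, the smallest log2 fold changes of the 7. The 7 levels summed to 49.7 FPKM in wild type and 7.33 FPKM in bitransgenic basal cells. Their median log2 ratio was -2.05, and with bitransgenic levels between 0.295 and 2.19 FPKM it moved to -0.93 with a pseudocount of 5 FPKM and to -3.01 with 0.1 FPKM.

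In suprabasal cells the 14 Lce1 genes all had the higher level in bitransgenic cells, again with none called. They include 7 that were not analysed in basal cells. Lce1d stood at 13.3 and 61.7 FPKM (2.21 ± 0.70, authors' p 0.00155, q 0.141). Lce1g stood at 5.54 and 28.5 FPKM (2.36 ± 0.81, p 0.00355, q 0.141). Lce1c had 14.8 and 52.6 FPKM (1.83 ± 0.59, p 0.002, q 0.141). The SEs ran from 0.557 to 1.64, and 7 of the 14 had an unadjusted p under 0.05. Lce1b had 12.0 and 46.8 FPKM (1.96 ± 0.70, p 0.005, q 0.141). Lce1a1 had 19.2 and 55.4 FPKM (1.53 ± 0.56, p 0.0059, q 0.141). Lce1f had 7.30 and 20.5 FPKM (1.49 ± 0.73, p 0.0409, q 0.466), and Lce1k 3.47 and 18.5 FPKM (2.41 ± 1.22, p 0.0486, q 0.510). The 7 others had p above 0.05. Their levels in wild type and bitransgenic cells were 8.12 and 21.02 FPKM for Lce1a2, 4.57 and 15.0 FPKM for Lce1e and 2.50 and 8.31 FPKM for Lce1h. In the same order, the levels were 4.92 and 12.4 FPKM for Lce1i, 1.38 and 3.82 FPKM for Lce1j, 4.83 and 23.03 FPKM for Lce1l, and 9.63 and 12.9 FPKM for Lce1m. Lce1m, the last of the 14 along the cluster, had the smallest log2 fold change of the 14 (0.42 ± 0.91). The 14 levels summed to 112 FPKM in wild type and 381 FPKM in bitransgenic cells, and the 7 genes measured in both layers to 81.8 and 279 FPKM. The median log2 ratio was 1.504 over the 14 and 1.76 over those 7.

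**Figure D2:**
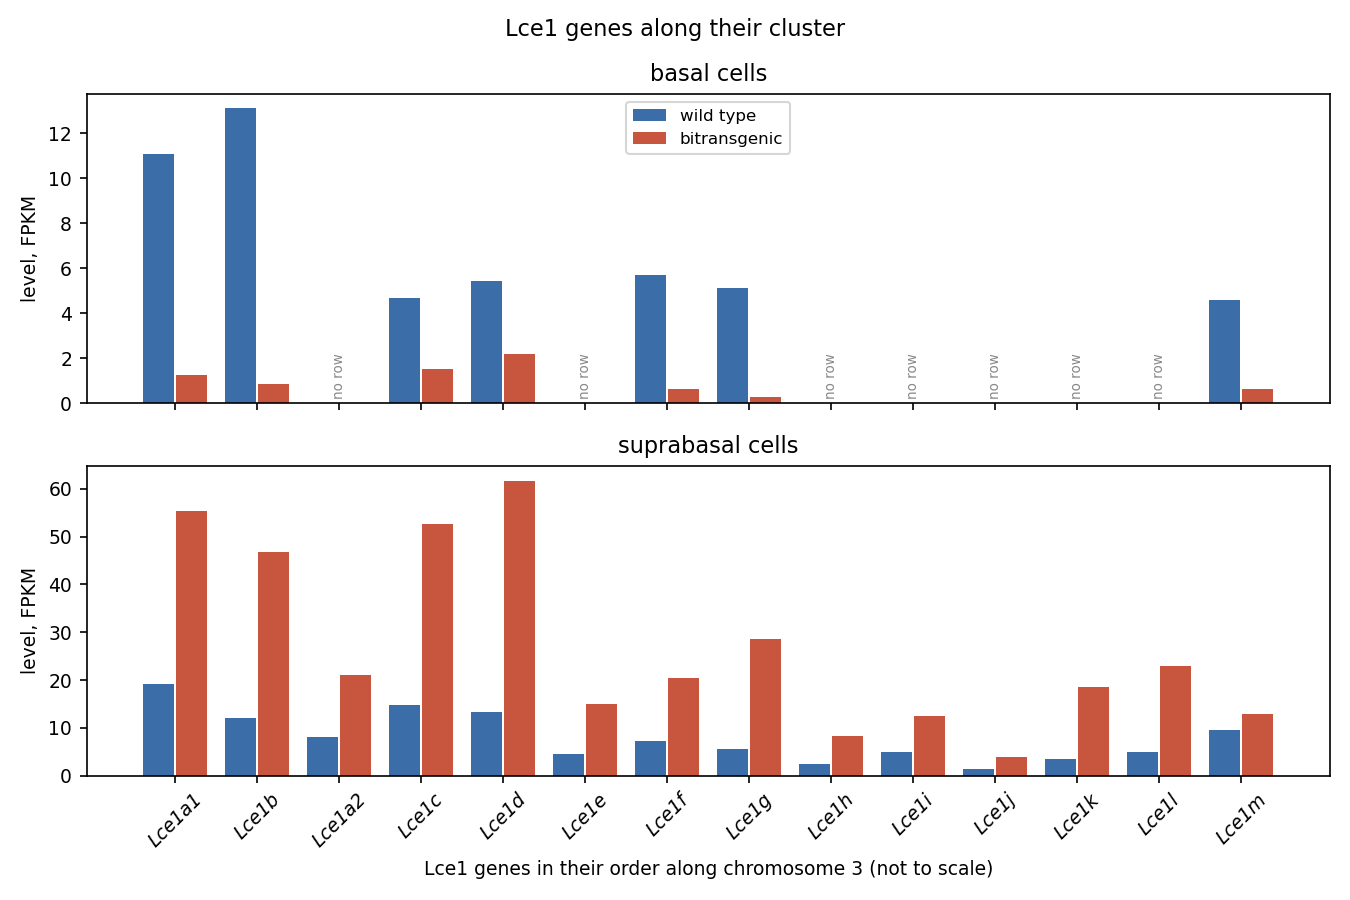
Levels of the Lce1 genes (bars, FPKM from 0, 1 authors' value per group) in their order along chromosome 3, wild type and bitransgenic, in basal cells (top) and suprabasal cells (bottom, another scale). Every basal pair measured steps down from wild type to bitransgenic, the largest from 13.1 to 0.840 FPKM, and every suprabasal pair steps up, the largest to 61.7 FPKM.

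The other envelope precursors are Lor, Ivl, Kprp, Crct1 and Cnfn. Lor (chr3:92080271-92083142, minus strand) encodes loricrin, the most abundant protein of the mature envelope. It fell in basal cells from 17.2 to 3.18 FPKM (-2.44 ± 0.67, p 0.0003, q 0.0347), and stood at 27.6 and 29.6 FPKM in suprabasal cells (0.10 ± 0.40, q 0.986). The basal call did not hold when the authors' p was adjusted by Benjamini-Hochberg over the analysed loci (adjusted p 0.0513), after centring (0.0958) or over loci that name 1 gene. It held over loci with at least 5 FPKM in the higher group. Kprp (chr3:92823074-92827247, within the span of the Lce1 cluster) had 2.57 and 0.478 FPKM in basal cells (-2.43 ± 1.12, p 0.0309, q 0.279). It rose in suprabasal cells from 3.12 to 16.8 FPKM (2.42 ± 0.60, p 5e-05, q 0.0161). No smaller p occurs in that table, so the SE is an upper bound. The wild type level of Kprp in suprabasal cells was 1.22 times that in basal cells, and its transcript shares no 50-base word with another gene. Crct1, a cysteine-rich protein encoded beside Lce1m, had 11.7 and 2.86 FPKM in basal cells (-2.04 ± 1.71) and 21.1 and 47.1 FPKM in suprabasal cells (1.16 ± 0.52, p 0.0263, q 0.363). Ivl encodes involucrin, an early precursor and substrate of transglutaminase 1. It was the 1 precursor with the higher level in bitransgenic basal cells, 4.14 and 9.29 FPKM (1.17 ± 0.46, p 0.011, q 0.118), and had 18.4 and 24.0 FPKM in suprabasal cells. Cnfn, which encodes cornifelin, lies on chromosome 7 and had 22.1 and 12.4 FPKM in basal and 35.7 and 49.4 FPKM in suprabasal cells (p above 0.05 in both).

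The S100-fused proteins are large repeat proteins of keratohyalin granules and the late envelope. Flg, the gene of filaggrin, which bundles keratin filaments, had the highest levels of all members in suprabasal cells. It stood at 106 and 53.0 FPKM in basal cells (-0.998 ± 0.45, p 0.0279, q 0.258) and 243 and 281 FPKM in suprabasal cells (0.21 ± 0.56). Flg2, its relative, had 2.63 and 0.481 FPKM in basal cells (-2.45 ± 0.99, p 0.0134, q 0.141) and 4.20 and 5.42 FPKM in suprabasal cells (0.37 ± 0.47). Neither was called in either layer, and both had the lower level in bitransgenic basal cells. Hrnr, the gene of hornerin, had 1.60 and 4.67 FPKM in suprabasal cells (1.54 ± 0.53, p 0.0034, q 0.141), and Rptn, the gene of repetin, 1.95 and 3.78 FPKM (0.96 ± 0.57). All of these genes except Flg2 overlap another annotated gene: Flg a pseudogene on its own strand, Hrnr and Rptn a long noncoding RNA on the opposite strand, and Rptn also an unclassified transcript on its own strand. The part of these neighbours in the levels was not tested.

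The plakins Ppl and Evpl encode periplakin and envoplakin, which form the first scaffold of the envelope at the membrane. Ppl had 58.6 and 57.1 FPKM in basal cells and 67.1 and 40.5 FPKM in suprabasal cells (-0.73 ± 0.41). Evpl had 29.6 and 26.5 FPKM in basal cells and 39.8 and 23.9 FPKM in suprabasal cells (-0.74 ± 0.37, p 0.0434, q 0.481). The pair therefore lay on the other side of 0 from the 14 Lce1 genes in suprabasal cells, and neither plakin was called.

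The transglutaminases cross-link the precursors. Tgm1 encodes the membrane-bound enzyme of the envelope and had 4.54 and 10.7 FPKM in basal cells (1.24 ± 0.44, p 0.00465, q 0.0622). In suprabasal cells Tgm1 had 12.4 and 18.6 FPKM (0.59 ± 0.39). Tgm3, the epidermal transglutaminase activated by cleavage, had the lower level in bitransgenic cells of both layers. Its levels were 92.9 and 58.0 FPKM in basal cells (-0.68 ± 0.28, p 0.0137, q 0.144) and 43.7 and 24.3 FPKM in suprabasal cells (-0.84 ± 0.34, p 0.0142, q 0.237). None of these differences was called. Tgm5 had 4.34 and 3.84 FPKM in suprabasal cells (-0.17 ± 0.51). The basal row that names Tgm5 is a different locus, with 0.0218 and 221 FPKM (13.31 ± 17.45, q 0.750). Its 20 nearest locus identifiers on chromosome 2 all belong to plus-strand genes, while Tgm5 is on the minus strand and the pseudogene Gm14213 on the plus strand lies within it. The basal row is therefore uncertain as a value of Tgm5 and enters no comparison of the layers.

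The log2 fold changes of the proteases ran from -0.60 (Klk5, suprabasal cells) to 0.86 (Klk7, basal cells). Casp14, a caspase of cornification that also degrades filaggrin, had 25.5 and 36.2 FPKM in basal cells (0.51 ± 0.29) and 69.1 and 69.6 FPKM in suprabasal cells (0.01 ± 0.33). Asprv1, the retroviral-like protease that cleaves profilaggrin, had 51.8 and 51.2 FPKM in basal and 132 and 101 FPKM in suprabasal cells. Klk7, a kallikrein that cuts the junctions of corneocytes, had 10.6 and 19.2 FPKM in basal cells (0.86 ± 0.40, p 0.0332, q 0.294) and 116 and 146 FPKM in suprabasal cells. Klk5, a kallikrein of the same shedding cascade, had 10.1 and 7.22 FPKM in basal and 29.1 and 19.1 FPKM in suprabasal cells. No protease was called, and the pair of kallikreins lay on opposite sides of 0 in both layers. The suprabasal fold change of Klk7 was smaller than its SE (0.33 ± 0.36), so its sign is uncertain.

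The protease inhibitors were the group with a call in the layer comparison. Cst6 (chr19:5344705-5349574) encodes cystatin M/E, which restrains the cathepsins that act on transglutaminase 3. In wild type it separated the layers more than any other member, with 3.55 FPKM in basal and 104 FPKM in suprabasal cells, a ratio of 29.3 (the tables were normalized separately). Cst6 rose in bitransgenic basal cells to 11.5 FPKM (1.69 ± 0.46, p 0.00025, q 0.0295). In bitransgenic suprabasal cells it stood at 45.5 FPKM (-1.19 ± 0.36, p 0.001, q 0.105, not called). The bitransgenic ratio of the layers was 3.96. Spink5, the gene of the kallikrein inhibitor LEKTI, had the higher level in bitransgenic cells of both layers: 5.51 and 11.2 FPKM in basal cells (1.02 ± 0.40, p 0.0116, q 0.124) and 15.8 and 21.3 FPKM in suprabasal cells (0.43 ± 0.36). Spink5 was not called.

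**Figure D3:**
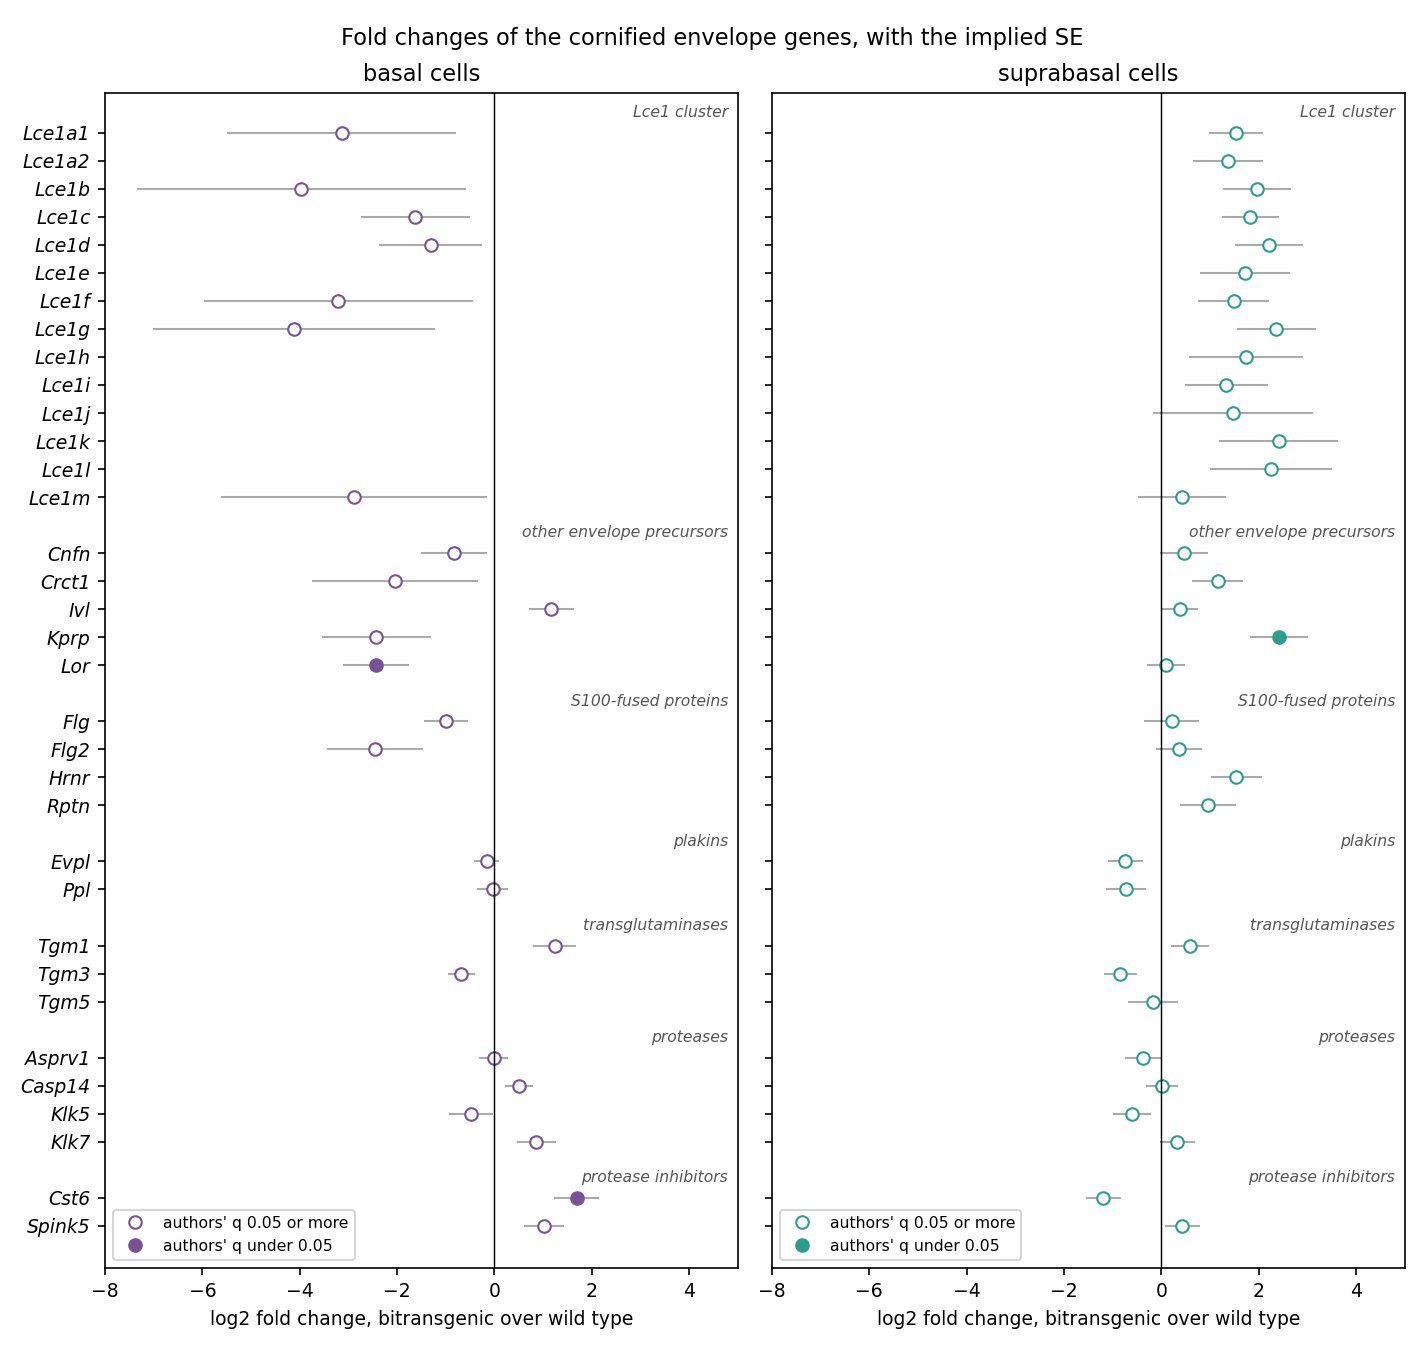
Log2 fold change (bitransgenic over wild type) of each member in basal (left) and suprabasal cells (right), with bars of 1 implied SE; filled points have an authors' q under 0.05. Cst6 (1.69) and Lor (-2.44) are filled in basal cells and Kprp (2.42) in suprabasal cells, and the basal Tgm5 row is not drawn.

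Whether a gene's fold change differed between the layers was put to a Wald z-test, two-sided, of the difference (suprabasal response less basal response, log2). It treats the layers as independent, although 3 wild type title stems and 1 bitransgenic stem of the 6 recur in both. Cst6 was the single member past Benjamini-Hochberg adjustment over 10579 loci, with a difference of -2.89 ± 0.59 (adjusted p 0.00477). That is 1 of 24 members with a lower suprabasal response (4.17%) against 0.00945% of loci, and 0 of 24 with a higher one against 0.0284%. At an unadjusted p under 0.05, 6 of 24 had the higher response in suprabasal cells (25%, against 1.69% of loci) and Cst6 alone the lower (4.17%, against 1.39%). The 6 were Kprp (4.85 ± 1.27, adjusted p 0.195), Lor (2.53 ± 0.78, adjusted p 0.487), Lce1d (3.53 ± 1.27), Lce1c (3.46 ± 1.26), Flg2 (2.81 ± 1.10) and Lce1g (6.48 ± 3.01). With the SE taken from the deposited test statistic, the Cst6 difference was not called (adjusted p 1).

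Read by sign alone, 13 of the 24 genes were lower in bitransgenic basal and higher in bitransgenic suprabasal cells: the 7 Lce1 genes, Lor, Kprp, Crct1, Flg, Flg2 and Cnfn. That is 54.2%, beside 20.4% of all 10583 loci tested in both layers. Among the 13, Lor, Flg, Flg2, Cnfn and Lce1m had suprabasal fold changes smaller than their SE, so those signs are uncertain. Cst6 alone had the opposite pair of signs. Casp14, Tgm1, Spink5, Ivl and Klk7 were higher in both layers. Evpl, Ppl, Tgm3, Asprv1 and Klk5 were lower in both. Some of these signs are uncertain too. The suprabasal fold changes of Casp14 (0.01 ± 0.33) and Klk7 (0.33 ± 0.36) were smaller than their SE. So were the basal ones of Evpl (-0.16 ± 0.26), Ppl and Asprv1. The basal signs of Ppl and Asprv1 (-0.04 and -0.02) turned to 0.07 and 0.09 after centring on the expressed loci of the table.

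The levels were also compared between the layers within each genotype. Such ratios cross tables that were normalized separately and carry no test. In wild type the suprabasal level was the higher one for 22 of 24 members, with a median ratio of 1.95, beside 47.2% of all loci and a median of 0.975. In bitransgenic cells it was higher for 21 of 24, with a median ratio of 6.46, beside 48.4% of loci and a median of 0.982. The 7 Lce1 genes had ratios from 0.917 (Lce1b) to 3.18 (Lce1c) in wild type and from 20.9 (Lce1m) to 96.7 (Lce1g) in bitransgenic cells. No pseudocount was used, and the bitransgenic basal levels of these 7 genes were only 0.295 to 2.19 FPKM. The size of their bitransgenic ratios, and with it the median of 6.46, is therefore uncertain. Outside the Lce1 cluster the median ratio was 2.30 in wild type and 2.65 in bitransgenic cells. Tgm3 was the member with the lower level in suprabasal cells in both genotypes (ratios of 0.470 and 0.420), while Lce1b was below 1 in wild type alone and Evpl and Ppl in bitransgenic cells alone. The ratio was higher in bitransgenic than in wild type cells for 13 of 24 members, among them 7 of 7 Lce1 genes, beside 49.3% of all loci.

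**Figure D4:**
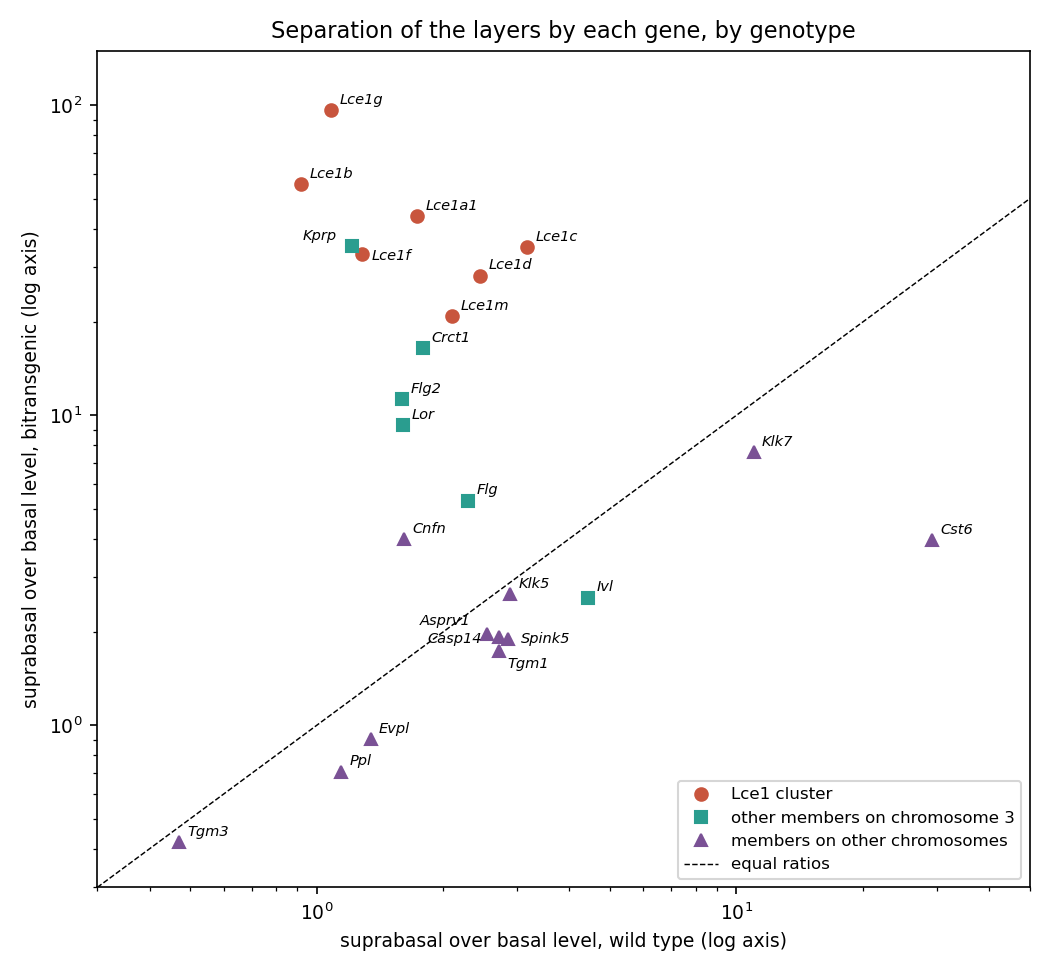
Suprabasal level over basal level of the 24 members with the same locus in both tables, wild type on the horizontal and bitransgenic on the vertical axis (both log, no unit); the dashed line marks equal ratios. The 7 Lce1 genes lie between 20.9 and 96.7 on the vertical axis, while Cst6 lies far below the line, at 29.3 and 3.96. The vertical ratios of the 7 rest on basal levels of 0.295 to 2.19 FPKM, without a pseudocount.

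The signs were also set out by chromosome. The 22 members on chromosome 3 span 1319 kb (chr3:92080271-93399442). Of the 13 measured in basal cells 12 were lower in bitransgenic cells, all but Ivl, with a median log2 ratio of -1.72. All 22 were higher in bitransgenic suprabasal cells, with fold changes from 0.10 (Lor) to 2.42 (Kprp) on the log2 scale and a median log2 ratio of 1.32. Of the 22, 9 were not analysed in basal cells. The 12 members on other chromosomes had 5 of 11 higher in basal cells without the Tgm5 row (median -0.02) and 5 of 12 higher in suprabasal cells (median -0.26). This grouping was made after the values had been seen and was not tested. The small proline-rich Sprr genes, precursors that are not members, lie in the same span. Their 10 loci were all higher in bitransgenic basal cells, with a median log2 ratio of 1.94, and 9 of 10 were higher in suprabasal cells, with a median of 1.21. The 10 are not separate genes: Sprr1a and Sprr1b are each named by a pair of loci, and Sprr2j-ps is a pseudogene by its symbol. The locus identifiers of each pair fall in different runs, beside the plus-strand Lce1c and beside the minus-strand Lor and Ivl. Which locus of a pair lies on the gene's own strand was not determined, so the Sprr counts and medians are uncertain. The Sprr1a pair had opposite signs in suprabasal cells (1.23 ± 1.72 and -0.32 ± 0.41). Basal SEs ran from 0.319 to 3.34, both at Sprr1a loci. The merged locus of Gm9774 and Sprr1b was called in basal cells (45.8 and 162 FPKM, 1.82 ± 0.45, q 0.00858). The Sprr genes are related copies too, and both they and their grouping were picked after the values had been seen.

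**Figure D5:**
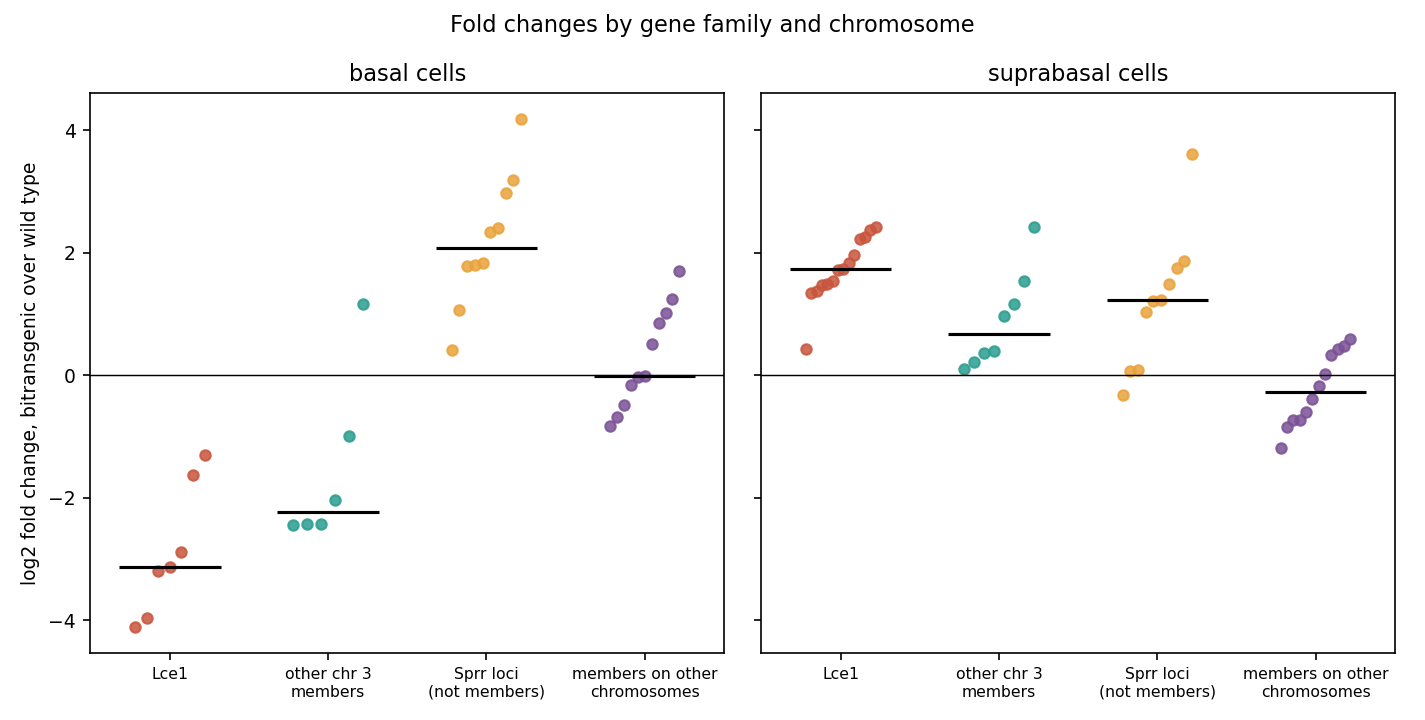
Log2 fold change (bitransgenic over wild type) of single loci, grouped as Lce1 genes, other members on chromosome 3, Sprr loci (not members) and members on other chromosomes, basal at left without the Tgm5 row and suprabasal at right; the thick lines are group medians. In basal cells the Lce1 points all lie below 0 and the 10 Sprr points above it, while in suprabasal cells the 14 Lce1 points and 9 of 10 Sprr points lie above 0.

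The DNA just upstream of most Lce1 genes also shares runs of letters. RefSeq promoters (GRCm38.p6, 250 bases before to 50 after the start) matched 27 of the 34 members, as 28 promoters, since Tgm1 has 2. Lce1f, Kprp, Crct1, Ppl, Evpl, Cst6 and Spink5 had no matching entry. The 60 bases before the start are shown, 5′ to 3′, for 3 Lce1 genes and Lor, whose fold changes in the layers had opposite signs. The suprabasal fold change of Lor was smaller than its SE (0.10 ± 0.40). Capitals mark TATAAA or AATAAAA.
Lce1b (chr3:92656927-92656986, minus strand): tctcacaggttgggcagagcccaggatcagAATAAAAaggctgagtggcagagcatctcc
Lce1d (chr3:92687211-92687270, minus strand): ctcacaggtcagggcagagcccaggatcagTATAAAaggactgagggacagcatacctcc
Lce1g (chr3:92752339-92752398, minus strand): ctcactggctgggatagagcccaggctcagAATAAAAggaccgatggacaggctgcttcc
Lor (chr3:92083143-92083202, minus strand): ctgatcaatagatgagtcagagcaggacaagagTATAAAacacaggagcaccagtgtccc
Within 40 bases before the start on the gene's strand, TATAAA stood in 2 of 13 Lce1 promoters (15.4%), in 7 of 28 member promoters (25%) and in 2.31% of all 32851 promoters of the table. AATAAAA, a motif added after the sequences had been read, stood there in 9 of 13 Lce1 promoters (69.2%) and in 0.551% of all promoters. AATAAAA and TATAAA share the letters ATAAA. The other motifs were searched over the whole 300 bases on both strands. TGANTCA, the AP-1 motif, stood in 5 of 28 member promoters (17.9%: Lor, Ivl, Flg, Flg2 and Rptn) and in 7.81% of all, with 0 of 13 in Lce1. AACCNGTT, the motif of Grainyhead-like factors, stood in 2 of 28 (7.14%: Tgm5 and Rptn) and in 2.09% of all. GGGNGTG, a Klf motif, stood in 6 of 28 (21.4%) and in 29.2% of all. TATAAA over the same window stood in 8 of 28 (28.6%) and in 13.6% of all. A match is a run of letters and not a site shown to be used.

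Other listed genes of the envelope, of filaggrin processing and shedding, and regulators of late differentiation were read for context. Of 38 other genes of the epidermal differentiation complex and the envelope, 26 were measured, in 23 loci. In basal cells 19 of the 23 were higher, with a median log2 ratio of 0.51, and besides the Sprr1b locus Pglyrp4, a peptidoglycan recognition protein, was called, falling from 28.3 to 5.33 FPKM (q 0.0371). In suprabasal cells 14 of the 23 were higher, with a median of 0.29, and none was called; the smallest p was that of the Sprr1b locus (131 and 304 FPKM, p 0.0109, q 0.197), followed by Pglyrp4 (10.2 and 1.17 FPKM, p 0.0127) and the locus of Sprr2d, Sprr2e and Sprr2h (53.2 and 194 FPKM, p 0.0219). Of 25 listed genes of filaggrin processing and shedding, 19 loci in basal cells gave Dsc1, a desmosomal cadherin, called higher (13.7 and 38.1 FPKM, q 0.00858) and Cst3, the gene of cystatin C, called lower (256 and 146 FPKM, q 0.0431). In suprabasal cells 21 loci of that list gave only Cst3, called lower (214 and 65.1 FPKM, q 0.0161). Cst3 fell in both layers, and Cst6, another cystatin gene, had opposite signs in them. Of 18 regulators none was called in basal cells, and the smallest p were those of Nfe2l2 (49.7 and 82.3 FPKM, p 0.011), Grhl1 (20.01 and 32.9 FPKM, p 0.0178) and Klf4 (138 and 84.7 FPKM, p 0.0179). The regulators had a median log2 ratio of -0.09 in basal cells.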

How the data were processed

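Keratinocytes were sorted by flow cytometry and strand-specific libraries were made from 10 ng of RNA with an amplifying kit, per the labels' protocols. TopHat, Cufflinks and the build mm10 are named, without versions, per the submitters' processing notes; how reads that fit several genes were counted is not given in the sources used here. The authors deposited 1 comparison table per layer in the form of a Cuffdiff table, with 1 level per genotype, read here as FPKM from that form since the file headers give no unit. The authors' log2 fold changes, their test statistic (a score), p-value and q-value were used as deposited.

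From these tables, an SE was computed as the absolute log2 fold change over the normal quantile, two-sided, that corresponds to the authors' p (an upper bound at the smallest p, 5e-05), since the deposited statistic did not give p by the normal distribution (median ratio to the quantile 0.631 and 0.628). Layer differences were tested with a Wald z-test and Benjamini-Hochberg adjustment over 10579 loci. A check on simulated data drew the layers independently, from normal noise with these same SEs. It therefore could not test whether the layers are independent or whether the authors' p follows the normal distribution. Medians use log2 ratios with a pseudocount of 1 FPKM. All members are named, with full statistics for those called or with the authors' p under 0.05; of other lists, the called members or else the 3 with the smallest p in a layer. The members and lists were chosen with earlier results of these data known. Gene positions and coding bases come from GENCODE M21 and promoters from RefSeq. Samples were grouped by the labels' genotype and source. Loci of another status (26 in each table) were left out. The regulators of late differentiation in suprabasal cells are not reported here. Python 3.11.15, numpy 2.4.6, pandas 2.3.3 and scipy 1.17.1 were used. With 1 value per group, the p-values are the authors' model of the spread, and no value per sample was used here. Alternatives varied the adjustment, the scaling, the pseudocount, a minimum level, the SE and the handling of merged loci.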

Additional observations from a re-analysis of the deposited data

Results flagged for a closer look

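Cst6 was the single cornified envelope gene whose response differed between the layers by the test of the difference itself: the log2 fold change in suprabasal cells less that in basal cells was -2.89 ± 0.59 (two-sided Wald z-test, Benjamini-Hochberg adjusted p 0.00477). Its level was 3.55 FPKM in wild type and 11.5 FPKM in bitransgenic basal cells, and 104 and 45.5 FPKM in suprabasal cells. The test assumes independent layers, but samples with the same title stem occur in each, and with the SE from the deposited statistic the difference was not called (adjusted p 1).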

How the results depend on the processing

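No paired analysis was possible because each table holds 1 authors' value per group, and leaving out single replicates was not run for the same reason. The number of members called in basal cells went from 2 to 1 (Cst6) under Benjamini-Hochberg adjustment of the authors' p (Lor 0.0513), under centred fold changes (Lor 0.0958) and over loci naming 1 gene. It stayed at 2 with a minimum of 5 FPKM in the higher group. The count for the layer difference went from 1 to 0 with the SE from the deposited statistic (Cst6 adjusted p 1). The suprabasal count was 1 in every alternative run. Under centring, by -0.11 in basal and -0.08 in suprabasal cells, 2 basal fold changes turned sign, Ppl to 0.0726 and Asprv1 to 0.0934, and the basal median outside Lce1 turned to 0.0049. The basal median of the members was -0.48 with a pseudocount of 5 FPKM, -0.43 with a minimum of 5 FPKM, -0.68 centred and -0.88 without the Tgm5 row. That of the Lce1 genes was -3.01 and -0.93 with pseudocounts of 0.1 and 5 FPKM, -2.24 with the minimum and -1.95 centred. In suprabasal cells the median of the members was 0.76 and 0.43 with those pseudocounts, 0.51 with the minimum and 0.38 over the 24 genes in both tables, and that of Lce1 was 1.69, 1.19 and, over 7 genes, 1.76. All Lce1 medians kept their sign in these alternatives. The cause of these shifts was not tested. The depth of the libraries is unknown, and 4 members in each layer stood under 5 FPKM in both groups.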
